A study of Mus musculus with 6 samples.

Results

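The 9 genes described here encode the machinery by which a cell senses sterols and adjusts their synthesis and uptake: Srebf1, Srebf2, Scap, Insig1, Insig2, Mbtps1, Mbtps2, Lrp1 and Mylip. They were chosen by gene symbol for these roles, and each symbol matched 1 gene among the 55492 genes of the deposited expression table, on chromosomes 1, 5, 8, 9, 10, 11, 13, 15 and X. RNA from cells carrying the O4 antigen, a surface lipid of late oligodendrocyte progenitor cells and immature oligodendrocytes, was sequenced from whole brains of 16-day-old (P16) untreated mice. There were 3 WT and 3 Npc1-/- mice, and each gave 1 poly(A) RNA library. The Npc1 allele is the nih allele, which is carried in the germline, so all cells of an Npc1-/- animal carried it and not only the O4+ cells. The Npc1-/- animals were F1 hybrids between BALB/cJ and C57BL6/J parents that each carried the allele. O4 selection enriches for oligodendrocyte lineage cells but does not purify them, and values are averages over all cells of a sample.

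NPC1 exports cholesterol from late endosomes and lysosomes to other membranes, including the endoplasmic reticulum. When sterols in the endoplasmic reticulum are low, the escort protein SCAP carries the precursors of the transcription factors SREBP-1 and SREBP-2 to the Golgi in COPII vesicles, where the site-1 and then the site-2 protease release their active part. When sterols are plentiful, INSIG proteins hold SCAP and the precursors in the endoplasmic reticulum. Insig1 is itself a target gene of SREBP, which closes a feedback loop, while Insig2 is controlled in other ways. Cells also take up cholesterol by receptors such as LRP1, and oligodendrocytes need large amounts of it for myelin.

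Because Insig1 is a transcriptional target of the pathway and its paralog Insig2 is not controlled in the same way, the RefSeq promoter windows of both genes are shown first, with that of Srebf2. Each window runs from 250 bases before a transcription start to 50 bases after it on GRCm38.p6, is written 5′ to 3′ on the gene's own strand, and has 300 bases. Capitals mark matches on either strand to the sterol regulatory element core TCACNCCA, the E-box CACGTG, which can bind SREBPs, and the CCAAT box, the site of the SREBP partner NF-Y. The E-box reads the same on both strands, the core TCACNCCA is contained in its 9-letter form TCACNCCAC, and no matches to different motifs overlapped in these windows. The Insig1 window lies at chr5:28071162-28071461 on the plus strand, that of Srebf2 at chr15:82147019-82147318 on the plus strand, and the most upstream of 3 Insig2 windows at chr1:121332540-121332839 on the minus strand.
Insig1: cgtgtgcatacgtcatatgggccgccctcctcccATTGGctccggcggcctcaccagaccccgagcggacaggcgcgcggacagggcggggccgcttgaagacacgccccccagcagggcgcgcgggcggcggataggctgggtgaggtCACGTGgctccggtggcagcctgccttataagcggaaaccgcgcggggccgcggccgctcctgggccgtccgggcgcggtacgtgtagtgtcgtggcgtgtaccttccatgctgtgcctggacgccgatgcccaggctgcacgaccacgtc
Srebf2: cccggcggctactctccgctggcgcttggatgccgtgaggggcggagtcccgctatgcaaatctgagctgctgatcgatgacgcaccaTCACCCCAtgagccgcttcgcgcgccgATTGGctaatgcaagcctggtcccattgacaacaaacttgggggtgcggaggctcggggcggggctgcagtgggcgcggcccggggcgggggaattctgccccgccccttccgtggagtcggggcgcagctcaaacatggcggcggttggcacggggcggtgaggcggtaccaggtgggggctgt
Insig2: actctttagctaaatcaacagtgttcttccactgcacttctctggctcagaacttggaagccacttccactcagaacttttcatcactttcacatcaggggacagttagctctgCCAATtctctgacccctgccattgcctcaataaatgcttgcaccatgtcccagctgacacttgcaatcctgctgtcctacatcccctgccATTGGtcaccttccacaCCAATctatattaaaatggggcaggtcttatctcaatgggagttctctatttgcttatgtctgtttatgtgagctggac

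The Insig1 window held 1 E-box, from base 101 to base 96 before the start, and 1 CCAAT box on the reverse strand, whose letters appear as ATTGG. The Srebf2 window was the only one of 14 windows of the 9 genes with the 8-letter core TCACNCCA, as TCACCCCA, from base 162 to base 155 before the start, with a reverse CCAAT box downstream of it. No window of the 9 genes held the 9-letter form TCACNCCAC, and the search for the shorter form was added after the sequences were seen. The Insig2 window shown held 3 CCAAT boxes and neither of the other motifs, and the other two Insig2 windows held none of the motifs. The 3 Insig2 windows held 0, 17 and 28 CpG dinucleotides, at 46.0%, 57.0% and 69.3% G and C, and that of Insig1 held 38 at 71.7%. In the whole set of 32851 windows, 1.24% held TCACNCCAC, 4.36% TCACNCCA, 7.15% CACGTG and 37.4% CCAAT. Of the 14 windows of the 9 genes, 3 held an E-box (Insig1 and both windows of Scap) and 6 a CCAAT box (in Insig1, Insig2, Mylip, Srebf1 and Srebf2). The windows of Scap overlap and hold the same E-box. These are matches of letters in short windows and show neither binding nor its absence.

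Expression is given as the authors' deposited TPM, an abundance per transcript length within a total that is fixed for each sample. Each sample's TPM was divided here by a size factor, the median ratio of its genes to their mean over samples, since Mbp alone took 18.8% to 26.1% of the TPM of a library. The size factors were between 0.727 and 1.295. In these units Npc1 was at 41.1, 45.5 and 43.9 in WT samples 1, 2 and 3 and at 3.72, 5.17 and 4.35 in the Npc1-/- samples, a log2 fold change of -3.17 (SE 0.12). Fold changes, standard errors and adjusted p-values come from limma with Benjamini-Hochberg adjustment over 15245 genes, those averaging 0.5 TPM or more, which include all 9. The thresholds for calling a gene were 0.05 for the adjusted p and 0.1 for the size of the log2 fold change. Steps between low FPKM values placed the libraries between 40500000 and 50500000 fragments, so that even the most weakly expressed of the 9 genes rested on at least 84.4 fragments per kilobase in each sample, and Insig1 on at least 733.9.

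Markers of the oligodendrocyte lineage had the highest summed level of the marker lists. The share of each cell type in the RNA was not estimated. Markers of other cell types were present and most of them were lower in Npc1-/- samples. The summed level of 13 oligodendrocyte lineage markers was 176500 to 249100 in WT and 223300 to 440100 in Npc1-/- samples, with a median log2 fold change of 0.26 and none called. The 7 microglial markers summed to 182.9 to 285.8 in WT and 86.4 to 156.8 in Npc1-/- samples, and 1 of them, Tmem119, was called lower. The 5 endothelial markers summed to 517 to 681.3 against 321.7 to 395.2, and the 4 pericyte markers to 328.3 to 486.5 against 198.3 to 250.4. The 4 markers of perivascular macrophages summed to 12.1 to 21.0 against 2.99 to 4.65, and 2 of them, Mrc1 and Cd163, were called lower. The 7 astrocyte markers overlapped between the groups as a sum, at 666.9 to 724.1 and 450.5 to 862, with Gfap higher and the other 6 at log2 fold changes below 0. The 8 neuronal markers summed to 88.7 to 125.8 in WT and to 126.4 to 156.3 in Npc1-/- samples, and none was called. No marker on any of these lists was at 0 in every sample. Fewer cells of a type and less RNA per cell cannot be told apart in these samples.

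None of the 9 genes was called between the genotypes, whereas 0.813% of all genes tested were (124 of 15245). Insig1 came closest and was the only one of the 9 with an unadjusted p below 0.05, a level that 22.2% of all genes reached. The groups did not overlap for 1 gene with higher values in Npc1-/- mice, Insig1, and for 1 with lower values, Mbtps1, and among all genes these shares were 13.3% and 14.2%. The log2 fold change was above 0 for 4 genes and below 0 for 5, with a median of -0.08 against 0.01 over all genes, and the median of its absolute value was 0.14 against 0.18. With TPM taken as deposited the median of all genes moved to -0.33, so directions are given here relative to the size-factor scale.

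**Figure D1:**
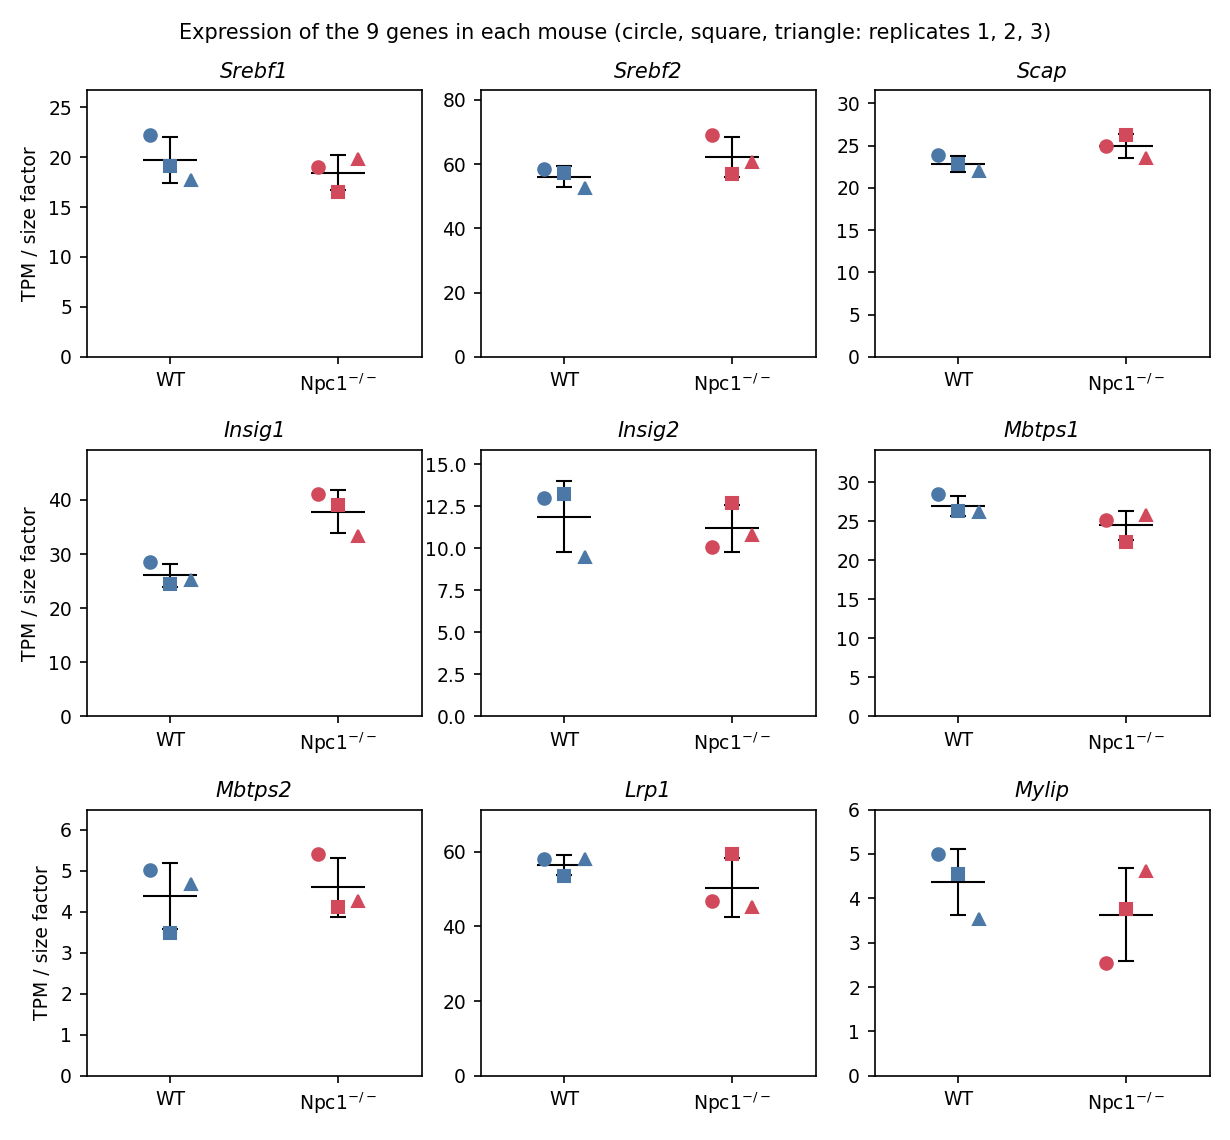
Scaled TPM (TPM divided by the size factor, linear axes from 0) of the 9 genes in each of 3 WT (blue) and 3 Npc1-/- (red) mice, with the mean and SD of each group as black bars. Insig1 is the only gene whose Npc1-/- samples all lie above the WT samples (33.4 to 41.0 against 24.5 to 28.5), and for Mbtps1 all lie below.

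The SREBP precursors and their escort are given first. Srebf2 (ENSMUSG00000022463, chr15:82147181-82205379, plus strand) encodes SREBP-2, which drives the genes of sterol synthesis. Its scaled TPM was 58.6, 57.3 and 52.4 in WT samples 1, 2 and 3 and 69.1, 56.9 and 60.8 in Npc1-/- samples 1, 2 and 3. The highest values were in Npc1-/- samples 1 and 3, while sample 2 lay within the WT range. The means were 56.1 ± 3.24 and 62.3 ± 6.25 (SD, n = 3), with a log2 fold change of 0.15 (SE 0.10, 95% interval -0.09 to 0.38, adjusted p = 0.453), and without Npc1-/- sample 1 it was 0.07.

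Srebf1 (ENSMUSG00000020538, chr11:60199089-60222581, minus strand) encodes SREBP-1, whose targets are mainly enzymes of fatty acid synthesis. In scaled TPM it was at 22.2, 19.1 and 17.7 in WT and 19.0, 16.5 and 19.9 in Npc1-/- samples. The groups overlapped, and the sample of highest value was a WT one. The log2 fold change was -0.09 (SE 0.12, 95% interval -0.37 to 0.19, adjusted p = 0.718). The gene has 12 annotated transcripts, which the deposited gene values do not separate, so forms with a different first exon cannot be compared. Its end overlaps that of Rai1 on the opposite strand, which reached 13.3 TPM, and whether the counting used strand is not given in the sources used here.

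Scap (ENSMUSG00000032485, chr9:110333288-110384950, plus strand) encodes the escort and sterol sensor of both SREBPs. WT samples had scaled TPM values of 23.9, 22.8 and 22.0, and Npc1-/- samples 25.01, 26.3 and 23.5. Npc1-/- sample 3 fell just inside the WT range and the other two were above it. The means of 22.9 ± 0.947 and 24.9 ± 1.40 (SD, n = 3) gave a log2 fold change of 0.12 (SE 0.08, 95% interval -0.08 to 0.32, adjusted p = 0.465).

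Of the INSIG anchors, Insig1 (ENSMUSG00000045294, chr5:28071363-28078662, plus strand), whose product binds SCAP when sterols are plentiful, had scaled TPM values of 28.5, 24.5 and 25.1 in WT samples and 41.0, 39.1 and 33.4 in Npc1-/- samples. All 3 Npc1-/- samples were above all 3 WT samples, with sample 3 the lowest of them. The means were 26.04 ± 2.17 and 37.8 ± 3.998 (SD, n = 3), a log2 fold change of 0.53 (SE 0.11, 95% interval 0.27 to 0.79), which is 1.44-fold with an interval of 1.21 to 1.73. The adjusted p was 0.0602, above the threshold, and the exact two-sided permutation test gave p = 0.1, the smallest that 3 samples against 3 can give. Without Npc1-/- sample 3 the adjusted p by limma was 0.0421 and the log2 fold change 0.62, and among genes averaging 5 TPM or more it was 0.0466. With TPM as deposited the log2 fold change was 0.16 (limma adjusted p = 0.645), which is 0.49 above the median of all genes on that scale.

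Insig2 (ENSMUSG00000003721, chr1:121304353-121332589, minus strand), the paralog of Insig1 with the same function, had groups that overlapped. In scaled TPM it was at 13.0, 13.2 and 9.45 in WT and 10.05, 12.7 and 10.8 in Npc1-/- samples. The lowest and the highest value were both in WT mice. The log2 fold change was -0.08 (SE 0.16, 95% interval -0.44 to 0.29, adjusted p = 0.828), an interval wide enough to hold a change of either sign.

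Neither protease gene passed the test. Mbtps1 (ENSMUSG00000031835, chr8:119508156-119558735, minus strand) encodes the site-1 protease, which makes the first cut in SREBP precursors in the Golgi. The scaled TPM of Mbtps1 was 28.5, 26.4 and 26.2 in WT and 25.2, 22.4 and 25.8 in Npc1-/- samples. All Npc1-/- samples were below all WT samples, but the gap between the lowest WT and the highest Npc1-/- value was small beside the spread within either group. The means were 27.0 ± 1.27 and 24.5 ± 1.84 (SD, n = 3), with a log2 fold change of -0.14 (SE 0.09, 95% interval -0.36 to 0.07, adjusted p = 0.424). With the trend of fold change on transcript length removed, the log2 fold change was -0.03.

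Mbtps2 (ENSMUSG00000046873, chrX:157535371-157598715, minus strand) encodes the site-2 protease, a metalloprotease that makes the second cut, within the membrane. WT samples 1, 2 and 3 had scaled TPM values of 5.02, 3.47 and 4.67, against 5.41, 4.11 and 4.27 in Npc1-/- mice. The groups overlapped, and the log2 fold change was 0.07 (SE 0.17, 95% interval -0.33 to 0.46, adjusted p = 0.865). The gene is on the X chromosome, and the libraries were not balanced for sex, since the female transcript Xist was at 15.6 TPM in Npc1-/- sample 3 and at most 0.01 TPM in the other 5. The Mbtps2 value of Npc1-/- sample 3 lay between those of the other two Npc1-/- samples.

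**Figure D2:**
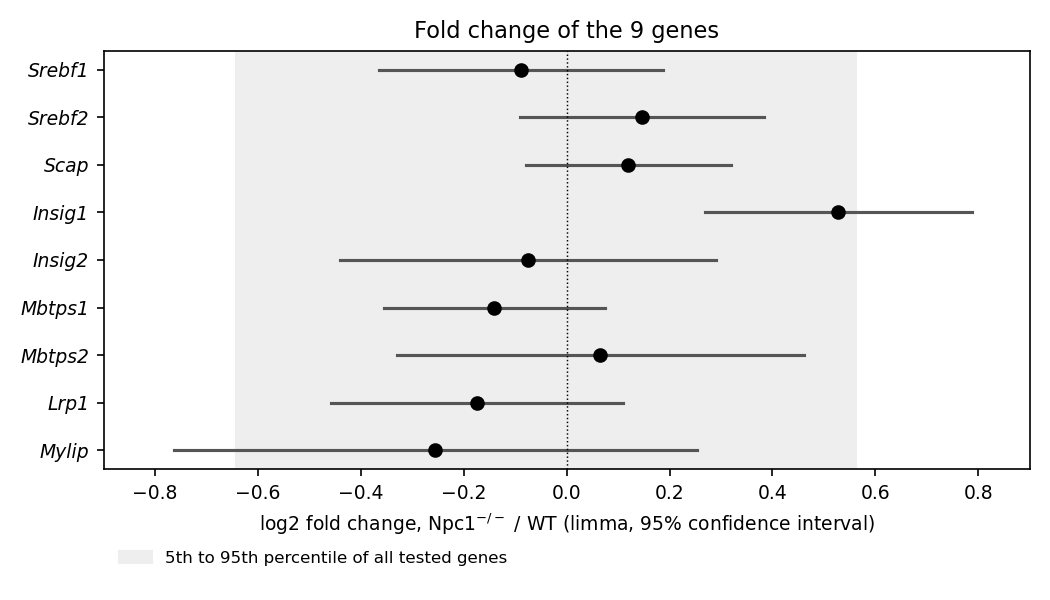
log2 fold change (Npc1-/- over WT, limma) of the 9 genes with 95% confidence intervals, over the band from the 5th to the 95th percentile of all 15245 genes tested (-0.64 to 0.56). The interval of Insig1 (0.27 to 0.79) is the only one that does not include 0, and no gene passed the adjusted threshold.

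Lrp1, a lipoprotein receptor gene, and Mylip, whose product removes lipoprotein receptors, each had a lower mean in Npc1-/- samples, within the spread between mice. Lrp1 (ENSMUSG00000040249, chr10:127538161-127621148, minus strand) encodes a large endocytic receptor for apolipoprotein E-containing particles and many other ligands. Its scaled TPM was 58.0, 53.4 and 58.1 in WT and 46.7, 59.4 and 45.1 in Npc1-/- samples. Npc1-/- samples 1 and 3 were below every WT sample and sample 2 was above every one. The means of 56.5 ± 2.71 and 50.4 ± 7.84 (SD, n = 3) gave a log2 fold change of -0.17 (SE 0.12, 95% interval -0.46 to 0.11, adjusted p = 0.456), and -0.02 with the trend on transcript length removed. With 1 mouse left out it ran from -0.30, without Npc1-/- sample 2, to -0.10, without Npc1-/- sample 3. Lrp1 is also expressed by astrocytes, pericytes and microglia, whose markers were mostly lower in Npc1-/- samples as given above, and their part in its level was not tested.

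Mylip (ENSMUSG00000038175, chr13:45389742-45412022, plus strand) encodes a ubiquitin ligase, also called IDOL, that marks lipoprotein receptors for breakdown and is induced by the sterol-activated LXR receptors. Mylip had a scaled TPM of 5.003, 4.56 and 3.54 in WT and 2.54, 3.75 and 4.61 in Npc1-/- samples. The values ran over nearly the same range in both groups, apart from the low value in Npc1-/- sample 1. The log2 fold change was -0.26 (SE 0.22, 95% interval -0.76 to 0.25, adjusted p = 0.547), the widest interval of the 9 genes, and without Npc1-/- sample 1 it was -0.05.

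On the scaled TPM scale, which is per transcript length, the mean levels over all 6 samples followed the order Srebf2 (59.2), Lrp1 (53.4), Insig1 (31.9), Mbtps1 (25.7), Scap (23.9), Srebf1 (19.1), Insig2 (11.5), Mbtps2 (4.49) and Mylip (4.001). The ranges over samples did not overlap between Lrp1 and Insig1, between Srebf1 and Insig2, or between Insig2 and Mbtps2. All other neighbours overlapped, although Scap exceeded Srebf1 in 6 of 6 samples. Srebf2 stood at the 90.7th percentile of the tested genes and Mylip at the 35.5th.

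Ratios between genes of one kind were then taken within each sample, since they depend little on how samples are scaled. They were taken from TPM as deposited, with 0.5 added to the value of each gene. The ratio of Insig1 to Insig2 was 2.16, 1.83 and 2.58 in WT samples and 3.95, 2.99 and 2.97 in Npc1-/- samples, so that every Npc1-/- sample was above every WT sample. The mean log2 ratio was 1.12 ± 0.249 in WT and 1.71 ± 0.235 in Npc1-/- samples (SD, n = 3), a difference of 0.59 with p = 0.1 by the exact permutation test and 0.15 after adjustment over the 3 ratios. The ratio of Srebf2 to Srebf1 was 2.61, 2.96 and 2.90 in WT and 3.58, 3.36 and 2.99 in Npc1-/- samples, again without overlap, although WT sample 2 and Npc1-/- sample 3 nearly met. Its mean log2 ratio was 1.495 ± 0.0978 and 1.72 ± 0.131 (SD, n = 3), a difference of 0.23 with an exact permutation p = 0.1, or 0.15 adjusted. The log2 ratio of Mbtps1 to Mbtps2 was 2.52 ± 0.220 in WT and 2.28 ± 0.145 in Npc1-/- samples (SD, n = 3), a difference of -0.24 (exact permutation p = 0.3, adjusted 0.3). With 20 arrangements of the samples, no ratio could reach p below 0.1, so these tests could not pass a threshold of 0.05.

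The enzymes of sterol synthesis, which SREBP-2 induces together with Insig1, were higher on average in Npc1-/- samples on this scale. All 20 of 20 enzymes had a log2 fold change above 0, with a median of 0.31 against 0.01 over all genes, but none was called. For 13 of them the groups were apart upwards (13.3% of all genes). An unadjusted p below 0.05 was reached by 14 (22.2% of all genes, in either direction). Pmvk, the phosphomevalonate kinase, averaged 94.5 ± 4.46 in WT and 128.9 ± 10.3 in Npc1-/- samples (SD, n = 3; log2 fold change 0.44, SE 0.09, limma adjusted p = 0.0621). Tm7sf2, a sterol reductase, and Hsd17b7, which reduces a 3-keto sterol, had log2 fold changes of 0.43 (limma adjusted p = 0.0662) and 0.53 (limma adjusted p = 0.0691). Hmgcs1, the HMG-CoA synthase and the most abundant of the list, was at 550.4 ± 34.9 in WT and 659.4 ± 42.2 in Npc1-/- samples (SD, n = 3), a log2 fold change of 0.26 (limma adjusted p = 0.227). With TPM as deposited only 6 of 20 were above 0 and the median was -0.06, while all 20 of 20 were above the median of all genes. Without Npc1-/- sample 3, 2 of the 20 were called, beside 488 of all 15245 genes. Among genes averaging 5 TPM or more, 2 of the 20 were likewise called, beside 447 of all 9150. Oligodendrocyte markers were also higher on average (median 0.26), and their part in this difference was not tested. In single nuclei of P16 forebrain, by contrast, the study reported cholesterol synthesis genes as lower in Npc1-/- immature oligodendrocytes. The tissue, the assay and the selection of cells differ between these data sets.

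Fatty acid enzymes, the main targets of SREBP-1, went in both directions. Of 12, 9 had a log2 fold change above 0 (median 0.09), and none was called. The groups were apart upwards for 3 and downwards for 3 (13.3% and 14.2% of all genes). An unadjusted p below 0.05 was reached by 1 upwards and 2 downwards (22.2% of all genes, in either direction). The median was below 0, at -0.02, under quantile normalization, and with TPM as deposited it was -0.29. Among genes averaging 5 TPM or more, 1 of the list was called, beside 447 of all 9150 genes in that fit. Acss2, the cytosolic acetyl-CoA synthetase, was at 33.3 ± 0.945 in WT and 43.8 ± 1.21 in Npc1-/- samples (SD, n = 3), a log2 fold change of 0.39 (SE 0.08, limma adjusted p = 0.0567). The desaturases Fads2 and Fads1 had log2 fold changes of -0.35 (limma adjusted p = 0.147) and -0.21 (limma adjusted p = 0.186), with all Npc1-/- samples below all WT samples for both. Scd2, the most abundant of the list, was at 685.1 ± 20.2 and 743.1 ± 7.38 (SD, n = 3), a log2 fold change of 0.12 (limma adjusted p = 0.560).

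Genes tied to the 9 at the protein level follow, as factors that act on them, the vesicle coat or other substrates of the proteases. Of 15 factors that degrade, stabilise or extract SCAP, INSIG or SREBP proteins, none was called (0.813% of all genes). None had groups apart (13.3% of all genes upwards and 14.2% downwards). None had an unadjusted p below 0.05 (22.2% of all genes), and the median log2 fold change was -0.08. Among those of smallest p were Marchf6, a ubiquitin ligase of the endoplasmic reticulum, at -0.28, and Erlin2, which binds SREBP and SCAP, at 0.27. Vcp, which pulls ubiquitinated proteins from the membrane and was the most abundant, was at -0.08. The 10 tested genes of the COPII coat all had log2 fold changes below 0, with a median of -0.13. None was called (0.813% of all genes) or had an unadjusted p below 0.05 (22.2%), although 3 had groups apart downwards (14.2% of all genes). The 3 were Sec24c (-0.19), Sar1a (-0.11) and Sec24a (-0.13), of which the last was named after its values were seen. The groups overlapped for Sec31a, at -0.24, and Sec13, the most abundant, was at -0.04. The other known substrates of the proteases had a median of -0.07 over 6 tested genes, of which none was called. An unadjusted p below 0.05 was reached by 1 of them (22.2% of all genes). This gene, Gnptab, which is cut by the site-1 protease and makes the mannose 6-phosphate tag of lysosomal enzymes, was at 30.9 ± 1.73 in WT and 39.5 ± 2.13 in Npc1-/- samples (SD, n = 3; log2 fold change 0.35, SE 0.09, limma adjusted p = 0.0781). Creb3l1 and Creb3l2, transcription factors released in the same way as SREBPs, were at -0.55 and -0.16, with limma adjusted p of 0.234 and 0.421, and the most abundant of the list was Gnptab.

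Around Lrp1 and Mylip, the shares of genes with groups apart were near those of all genes. Of 17 tested genes for lipoprotein receptors, their chaperones and adaptors none was called, and 2 upwards and 3 downwards had both groups apart (13.3% and 14.2% of all genes) and an unadjusted p below 0.05, and the median log2 fold change was -0.03, or 0.0039 with the trend on transcript length removed. Sort1, the sorting receptor sortilin, was at 35.6 ± 3.86 in WT and 57.4 ± 9.08 in Npc1-/- samples (SD, n = 3), a log2 fold change of 0.67 (SE 0.14, limma adjusted p = 0.0584). Lrp4, best known as the agrin receptor at the neuromuscular junction, was at 6.95 ± 0.438 and 9.87 ± 0.411 (SD, n = 3), a log2 fold change of 0.48 (SE 0.10, limma adjusted p = 0.0583). Lrp8, a receptor for reelin and apolipoprotein E, was at 23.3 ± 8.58 and 11.2 ± 1.93 (SD, n = 3), a log2 fold change of -0.98 (SE 0.24, limma adjusted p = 0.0796). Among genes averaging 5 TPM or more, 2 of this list were called (447 of all 9150 genes). With TPM as deposited 1 was called (924 of all 15245), and 1 with the trend on length removed (116 of all 15230). Lrpap1, the chaperone that keeps ligands off new receptors and the most abundant of the list, was at -0.15 (limma adjusted p = 0.649).

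The LXR receptors and their targets other than Mylip were lower on average. Of 9 tested genes, 2 had a log2 fold change above 0 and none was called, with a median of -0.27. The groups were apart downwards (14.2% of all genes), with an unadjusted p below 0.05 (22.2% of all genes), for 3 of the 9. With TPM as deposited 1 was called (924 of all 15245 genes), and likewise 1 among genes averaging 5 TPM or more (447 of all 9150). Lpcat3, a phospholipid-remodelling enzyme, was at 23.0 ± 2.26 in WT and 16.6 ± 0.945 in Npc1-/- samples (SD, n = 3; log2 fold change -0.45, SE 0.10, limma adjusted p = 0.0661). Pltp, the phospholipid transfer protein and the most abundant of the list, had a log2 fold change of -0.50 (SE 0.15, limma adjusted p = 0.116), and the cholesterol exporter Abca1 one of -0.74 (SE 0.23, limma adjusted p = 0.117). These genes are also expressed by glia and by cells of the vessel wall. The markers of microglia, endothelial cells and pericytes were lower as given above, and the part of those cells in the difference was not tested.

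**Figure D3:**
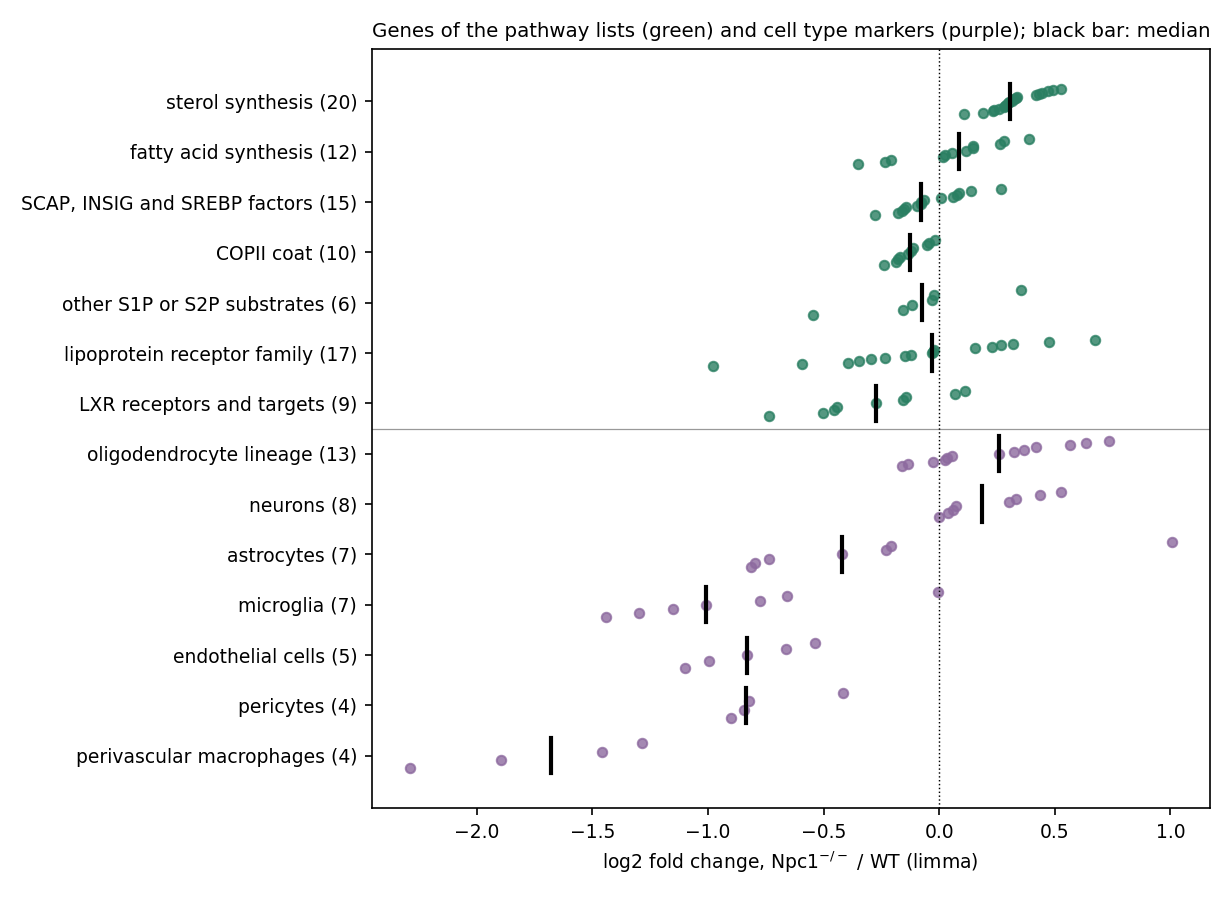
log2 fold change (Npc1-/- over WT, limma, size-factor scale) of each tested gene on 7 pathway lists (green) and 7 cell type marker lists (purple), with the median of each list as a black bar and the number of genes in parentheses. All 20 sterol synthesis enzymes lie above 0 (6 of 20 with TPM as deposited), and the markers of microglia, endothelial cells, pericytes and perivascular macrophages lie below 0, with medians from -0.83 to -1.68.

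The genes whose values followed Insig1 most closely over the 6 samples were found among 9149 genes averaging 5 TPM or more. These were Igsf8 (Pearson r = 0.995), Fgfrl1 (0.993), Lbh (0.993), Msmo1 (0.989) and Scamp4 (0.988), and Msmo1 is itself an enzyme of sterol synthesis. Another, the squalene epoxidase Sqle, ranked 10 with r = 0.986. In all, 201 genes had r of at least 0.9 with Insig1. For Mbtps1 the closest were Stra6 (r = 0.993), Ate1 (0.988), Phf2 (0.988), Zc2hc1a (0.986) and Bmpr1a (0.984), and 146 genes had r of at least 0.9. Each r rests on 6 points that share libraries, size factors and the difference between the genotypes, so these values describe the samples only.

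**Figure D4:**
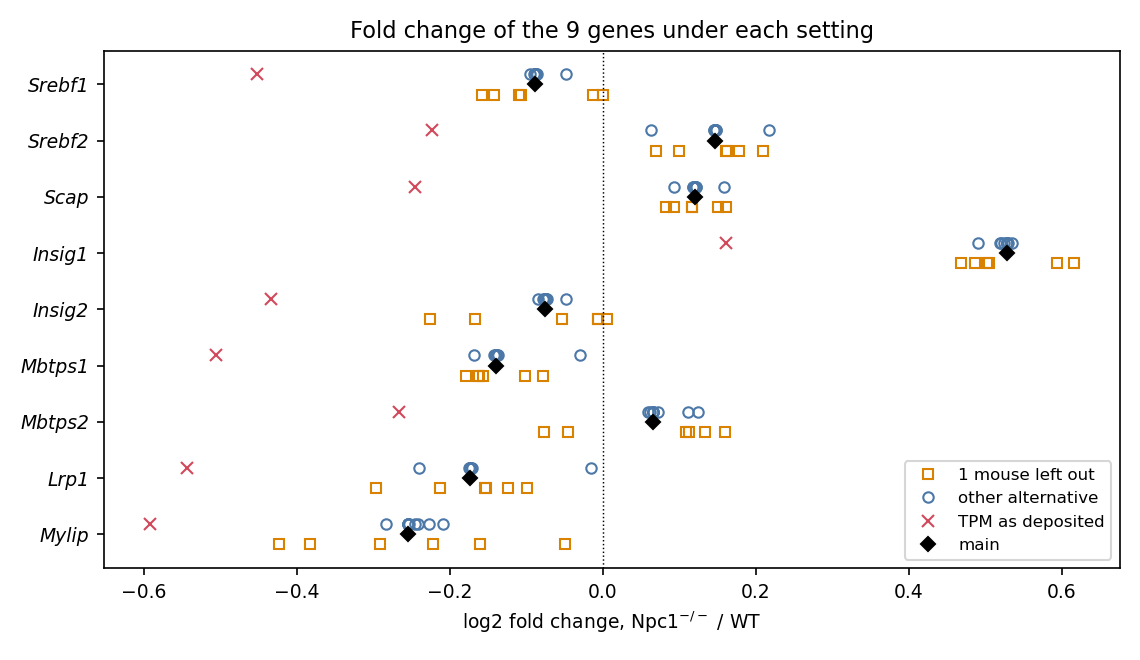
log2 fold change of the 9 genes in the main analysis (black diamonds), with 1 mouse left out (orange squares), with TPM as deposited (red crosses) and under the other alternatives (blue circles). The values with TPM as deposited lie to the left of the rest for each gene, where the median of all genes is -0.33, and the values of Insig1 lie above 0 in each setting, from 0.16 to 0.62.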

How the data were processed

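O4+ cells of 3 WT and 3 Npc1-/- mice were profiled by poly(A) RNA-seq. The submitters' processing notes name cutadapt 2.3, STAR 2.7.8a, RSEM 1.3.3, FastQC 0.11.8, MultiQC 1.7 and the builds GRCm38 and mm10, while the methods of the study name bbduk, STAR and featureCounts. Which of these made the tables is not known. The authors deposited TPM values and FPKM values for 55492 genes with 2 decimals. TPM keeps no depth, so no count test was run.

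TPM was divided by median-of-ratios size factors (18690 genes above 0 everywhere), 0.5 was added and log2 taken. Fold changes are on this scale, which understates those of low genes. Genes averaging 0.5 TPM or more were fitted in limma 3.58.1 (R 4.3.3; lmFit, then eBayes with trend), and the model held genotype alone. The script was tested on simulated data. P-values measure the spread between 3 mice per genotype. Exact permutation tests used 20 arrangements. Positions and transcripts came from GENCODE M21 on GRCm38, which held 55227 of the genes. Promoters came from RefSeq (GRCm38.p6) and were found for 9 of 9 genes in 14 windows.

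Depth came from FPKM steps in genes with 1 transcript of 350 to 1500 bases. Between 79.5% and 81.4% of the values used came out within 0.15 of a whole number of fragments. At a depth fixed beforehand 30% would by chance, but the depth was chosen for closeness to whole numbers. The share is therefore no test of the depth. Intervals come from the spread between mice with 1 library each, which also holds counting error, and the parts were not separated.

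The 9 genes and all lists were chosen with earlier results of these data known. Named are the 9 genes, Npc1, the 3 genes of smallest p and the most abundant of each list, and the 5 genes most like each of the 2 members of smallest p, and 1 gene that this rule names is not reported here. Xist, Mbp, Gfap, Rai1 and Sqle were named after their values were seen, as were the markers Tmem119, Mrc1 and Cd163. Alternatives were FPKM, TPM without size factors, quantile normalization, a pseudocount of 0.1 or of 1, all genes above 0, a stricter filter of 5 TPM, limma robust or without trend, autosomes only, a replicate block, a length curve (span 0.3, longest transcript) and each mouse left out.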

Additional observations from a re-analysis of the deposited data

How the results depend on the processing

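Of the 9 genes, 0 were called, but 1, Insig1, was with a mean TPM of at least 5 (0.53 on the log2 scale, limma adjusted p = 0.0466), with the replicate block (0.53, limma adjusted p = 0.0226) and without Npc1-/- replicate 3 (range with 1 mouse left out 0 to 1 called, log2 fold change 0.47 to 0.62, limma adjusted p from 0.0421 to 0.213). Npc1-/- replicate 3 was the only library with the female transcript Xist above 0.01 TPM (15.6 TPM). Leaving it out therefore left no female library, and the part of sex in any of the differences was not tested. Over all alternatives Insig1 stayed above 0, at 0.16 to 0.62. TPM as deposited reversed Srebf2 (-0.22), Scap (-0.25) and Mbtps2 (-0.27), while the median of all genes was -0.33. Leaving out 1 mouse spanned 0 for Srebf1 (-0.16 to 0.0003), Insig2 (-0.23 to 0.0051) and Mbtps2 (-0.0774 without WT replicate 2 to 0.16). The directions of Lrp1, Mbtps1 and Mylip and of the 3 ratios held in each setting run. With a mean TPM of at least 5, Mbtps2 and Mylip had no value, and on autosomes alone Mbtps2 had none.

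The 124 genes called became 924 with TPM as deposited (54 higher, 870 lower), 225 with quantile normalization (92 higher, 133 lower), 21 with no filter (28469 tested), 447 with a mean TPM of at least 5, 42 without trend, and 5 (without Npc1-/- replicate 2) to 488 (without Npc1-/- replicate 3) with 1 mouse left out. The main split was 61 higher and 63 lower. The replicate block gave 2011 of all 15245 genes. Among the lists it called 9 of 20 sterol synthesis enzymes and 3 of 12 fatty acid enzymes. It also called 4 of 17 genes of the lipoprotein receptor list and 1 of 9 of the LXR list. Mice with the same number were not stated to be related, so the numbers were not taken as a pairing. Their deviations correlated at 0.414, 0.0602 and 0.326, and those of mice with different numbers at -0.391 to 0.0548. Whether same-numbered libraries shared a batch or litter was not tested. The causes of these shifts were not tested. With 3 mice per genotype, the 95% intervals of the fold changes of the 8 genes other than Insig1 reached down to 0.589 and up to 1.38.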
